A study of Danio rerio with 15 samples.

Results

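The genes described here encode folding proteins of the endoplasmic reticulum: hspa5, hsp90b1, hyou1, dnajb11, manf, pdia3, pdia4, pdia6 and p4hb. They were chosen by name, and a probe set was taken for a member where its annotation held that symbol and no other. By this rule 8 of the 9 genes had a probe set, with 9 probe sets in all (manf had 2) out of 15502 zebrafish probe sets on the array. No probe set carried the symbol p4hb, which was not analysed here. The members were chosen because their levels in these same arrays were known to differ with irradiation and dose, so their values are given as a description, without p-values.

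Liver RNA of male zebrafish of the AB background was measured at 16 weeks of age, in order to compare a long-term with an acute response to γ-rays at a low and a moderate dose. The control group was not irradiated. The embryo 0.1 Gy and embryo 1.0 Gy groups were irradiated at 24 hours post-fertilization and raised to 16 weeks, and together form the long-term response groups. The adult 0.1 Gy and adult 1.0 Gy groups were irradiated at 16 weeks and analysed after 4 hours, and form the acute response groups. Age at exposure and time since exposure therefore changed together and cannot be told apart. Each group had 3 arrays, each hybridized with the pooled livers of 2 males. The embryos came from a common pool of clutches, and the control and each long-term group were then raised as batches of their own. Batch and dose therefore cannot be told apart in the long-term groups. Nor can batch and irradiation where the long-term groups are compared with the control or the acute groups. The 12 males of the acute groups were taken from the cohort that supplied the controls, and the sources used here mention no sham exposure for the controls. Nothing states that the pools of a group differed in more than their fish, so p-values measure the spread between pools.

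For 4 arrays the labels disagree. The source names of control replicates 2 and 3 read as adults that had been irradiated, and those of adult 0.1 Gy replicates 1 and 2 read as plain adults, whereas their titles, doses and timing place them in the groups used here. On these arrays hspa5 was at 11.41 and 11.10 in control replicates 2 and 3, beside 11.20 in replicate 1, and at 6.09 and 6.22 in adult 0.1 Gy replicates 1 and 2, beside 6.50 in replicate 3. Members differed in how close control replicate 1 lay to the other controls. In control replicates 1, 2 and 3 pdia4 was at 9.09, 9.42 and 9.07. By contrast, manf probe set 1 was at 7.94, 9.61 and 9.34 and dnajb11 at 6.22, 7.07 and 7.00, with replicate 1 apart. In adult 0.1 Gy replicates 1, 2 and 3 manf probe set 1 was at 7.21, 6.92 and 6.72 and dnajb11 at 5.92, 6.05 and 6.16, below all controls. Which label is right was not tested. Leaving out the 4 arrays, or the controls among them, ended some calls of the genes described. Such losses are given beside the gene, after the gene lists or with the results set apart at the end, some only as counts.

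Proteins that enter the secretory pathway fold in the endoplasmic reticulum, where chaperones bind unfolded stretches and disulfide isomerases form and rearrange cysteine bonds. When unfolded protein accumulates, sensors in the membrane start the unfolded protein response, which raises transcription of the chaperones and holds back translation by phosphorylating the initiation factor eIF2α. The liver secretes most of the plasma proteins and its cells are rich in this machinery. Roles given for genes are those known from mammalian cells.

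Liver identity was checked with hepatocyte markers. Their summed level (log2 of the sum over 18 probe sets) lay between 17.81 and 18.02 on all 15 arrays. It was led by fabp10a, apoa2 and fgg (means 15.02, 14.98 and 14.63), high on a scale whose distribution normalization made common to all arrays. A steady sum therefore does not show a steady share of hepatocytes. Only 9 of the 18 probe sets varied enough to be tested. Of these 9, 0 were called in the long-term or acute comparison with the control or in either dose comparison, with 1 or 2 in each at an unadjusted p under 0.05 in limma. Over all tested probe sets such a p was seen in 37.0% (long-term), 58.8% (acute), 13.8% (embryo dose) and 12.5% (adult dose). The shares called were 21.2%, 39.6%, 1.24% and 0.0811% in the same order. Array medians ranged from 5.02 to 5.14. All values are log2 expression after robust multi-array averaging (RMA), a difference of 1 being a 2-fold change. A probe set is called here when, in limma, the Benjamini-Hochberg adjusted p was under 0.05 for both the F-test over the 5 groups and the comparison. Of 15502 probe sets, 8634 varied enough to be tested, all 9 of the members among them.

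hspa5, the Hsp70 chaperone of the endoplasmic reticulum (also called BiP or Grp78), showed the widest range of the members. In the control its values were 11.20, 11.41 and 11.10. In the embryo 0.1 Gy group they were 6.95, 7.71 and 7.20, and in the embryo 1.0 Gy group 8.84, 8.93 and 9.73. Every embryo 1.0 Gy array lay above every embryo 0.1 Gy array, with a gap of 1.14 between the nearest arrays, and both groups lay below the control. In the adult 0.1 Gy group the values were 6.09, 6.22 and 6.50, and in the adult 1.0 Gy group 5.84, 7.49 and 6.10. The adult groups overlapped each other, and adult 1.0 Gy replicate 2 lay within the range of the embryo 0.1 Gy arrays. Relative to the control mean, hspa5 was at 6.46% in the embryo 0.1 Gy group, 23.8% in the embryo 1.0 Gy group, 3.19% in the adult 0.1 Gy group and 3.68% in the adult 1.0 Gy group. The order of the group means was therefore control, embryo 1.0 Gy, embryo 0.1 Gy and then both adult groups, whose means of 6.27 ± 0.21 (0.1 Gy, SD, n = 3) and 6.48 ± 0.88 (1.0 Gy) did not differ beyond their spread. The lower of the doses thus came with the lower level among fish irradiated as embryos.

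hsp90b1, the Hsp90 chaperone of the compartment (Grp94), was at 9.99, 10.32 and 10.14 in the control. It was at 8.21, 9.13 and 9.11 in the embryo 0.1 Gy group and at 9.12, 8.92 and 9.32 in the embryo 1.0 Gy group, which overlapped. The adult groups also overlapped, with 8.60, 8.25 and 8.37 at 0.1 Gy and 8.24, 8.35 and 8.10 at 1.0 Gy. All 12 irradiated arrays lay below all 3 controls. The group means stood at 39.7% and 48.9% of the control in the embryo 0.1 and 1.0 Gy groups, and at 29.9% and 26.4% in the adult 0.1 and 1.0 Gy groups.

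hyou1 (Grp170), which exchanges the nucleotide of hspa5, was at 8.10, 9.02 and 8.59 in the control. In the embryo groups it was at 7.01, 6.87 and 6.73 after 0.1 Gy and at 7.09, 7.07 and 7.28 after 1.0 Gy, so that the doses did not overlap but were separated by only 0.06. In the adult groups it was at 6.37, 6.38 and 6.60 after 0.1 Gy and at 6.53, 6.79 and 6.60 after 1.0 Gy, with overlap. The irradiated groups were at 30.8% (embryo 0.1 Gy), 37.3% (embryo 1.0 Gy), 23.0% (adult 0.1 Gy) and 26.3% (adult 1.0 Gy) of the control.

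dnajb11 (ERdj3), a J-domain partner of hspa5, changed less and its controls were spread. It was at 6.22, 7.07 and 7.00 in the control, at 6.19, 6.26 and 6.24 after 0.1 Gy and at 6.01, 6.09 and 6.30 after 1.0 Gy in the embryo groups. Among adults it was at 5.92, 6.05 and 6.16 after 0.1 Gy and at 5.76, 5.91 and 6.14 after 1.0 Gy. Control replicate 1 lay inside the range of the embryo groups, and no neighbouring irradiated groups were separated. The group means were at 56.4% to 69.1% of the control.

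manf, a stress-induced resident and secreted protein that binds hspa5, was measured by 2 probe sets, named here probe set 1 and probe set 2. Probe set 1 was at 7.94, 9.61 and 9.34 in the control, at 7.24, 7.31 and 7.13 after 0.1 Gy and at 7.51, 7.43 and 7.40 after 1.0 Gy in the embryo groups, and at 7.21, 6.92 and 6.72 after 0.1 Gy and 6.27, 6.12 and 6.31 after 1.0 Gy in the adult groups. Control replicate 1 was the lowest control by more than 1 log2 unit, and still lay above all irradiated arrays. The doses did not overlap in either response, but they were ordered in opposite directions: 0.1 Gy lay below 1.0 Gy in the embryo groups (gap 0.09) and above it in the adult groups (gap 0.42). Probe set 2 was at 7.48, 8.84 and 8.73 in the control, and in the embryo groups at 6.19, 6.29 and 5.83 after 0.1 Gy and at 6.31, 6.15 and 6.24 after 1.0 Gy. In the adult groups probe set 2 was at 5.94, 5.97 and 5.45 after 0.1 Gy and at 5.31, 5.47 and 5.14 after 1.0 Gy. Here the doses overlapped in both responses, so the opposite order without overlap was seen with probe set 1 only. Relative to the control the adult 1.0 Gy group was the lowest by both probe sets, at 15.1% and 12.2%.

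Among the disulfide isomerases, pdia4 (ERp72) had the same order of control, embryo 1.0 Gy and embryo 0.1 Gy as hspa5. It was at 9.09, 9.42 and 9.07 in the control, at 6.93, 7.26 and 7.40 in the embryo 0.1 Gy group and at 7.75, 7.63 and 7.74 in the embryo 1.0 Gy group. The embryo groups did not overlap, with a gap of 0.23. Among adults pdia4 was at 6.83, 6.35 and 6.85 after 0.1 Gy and at 6.86, 6.43 and 6.05 after 1.0 Gy, with overlap. It stood at 25.0% of the control in the embryo 0.1 Gy group, 35.7% in the embryo 1.0 Gy group, 17.4% in the adult 0.1 Gy group and 14.9% in the adult 1.0 Gy group.

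pdia6 (P5) moved over a narrow range. It was at 7.37, 7.72 and 7.52 in the control, at 7.32, 7.26 and 7.03 after 0.1 Gy and 6.97, 7.09 and 7.10 after 1.0 Gy in the embryo groups, and at 6.94, 6.82 and 7.02 after 0.1 Gy and 6.88, 6.93 and 6.90 after 1.0 Gy in the adult groups. The doses overlapped in both responses, and the group means were at 64.6% to 79.5% of the control.

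pdia3 (ERp57), the isomerase that works with calnexin and calreticulin on glycoproteins, was the exception. It was at 10.64, 10.80 and 10.87 in the control, at 10.19, 10.78 and 10.77 after 0.1 Gy and 11.13, 10.90 and 10.55 after 1.0 Gy in the embryo groups, and at 10.65, 10.49 and 10.28 after 0.1 Gy and 10.44, 10.76 and 10.45 after 1.0 Gy in the adult groups. All 4 irradiated groups overlapped the control, and the group means were at 81.4% to 106% of the control.

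**Figure D1:**
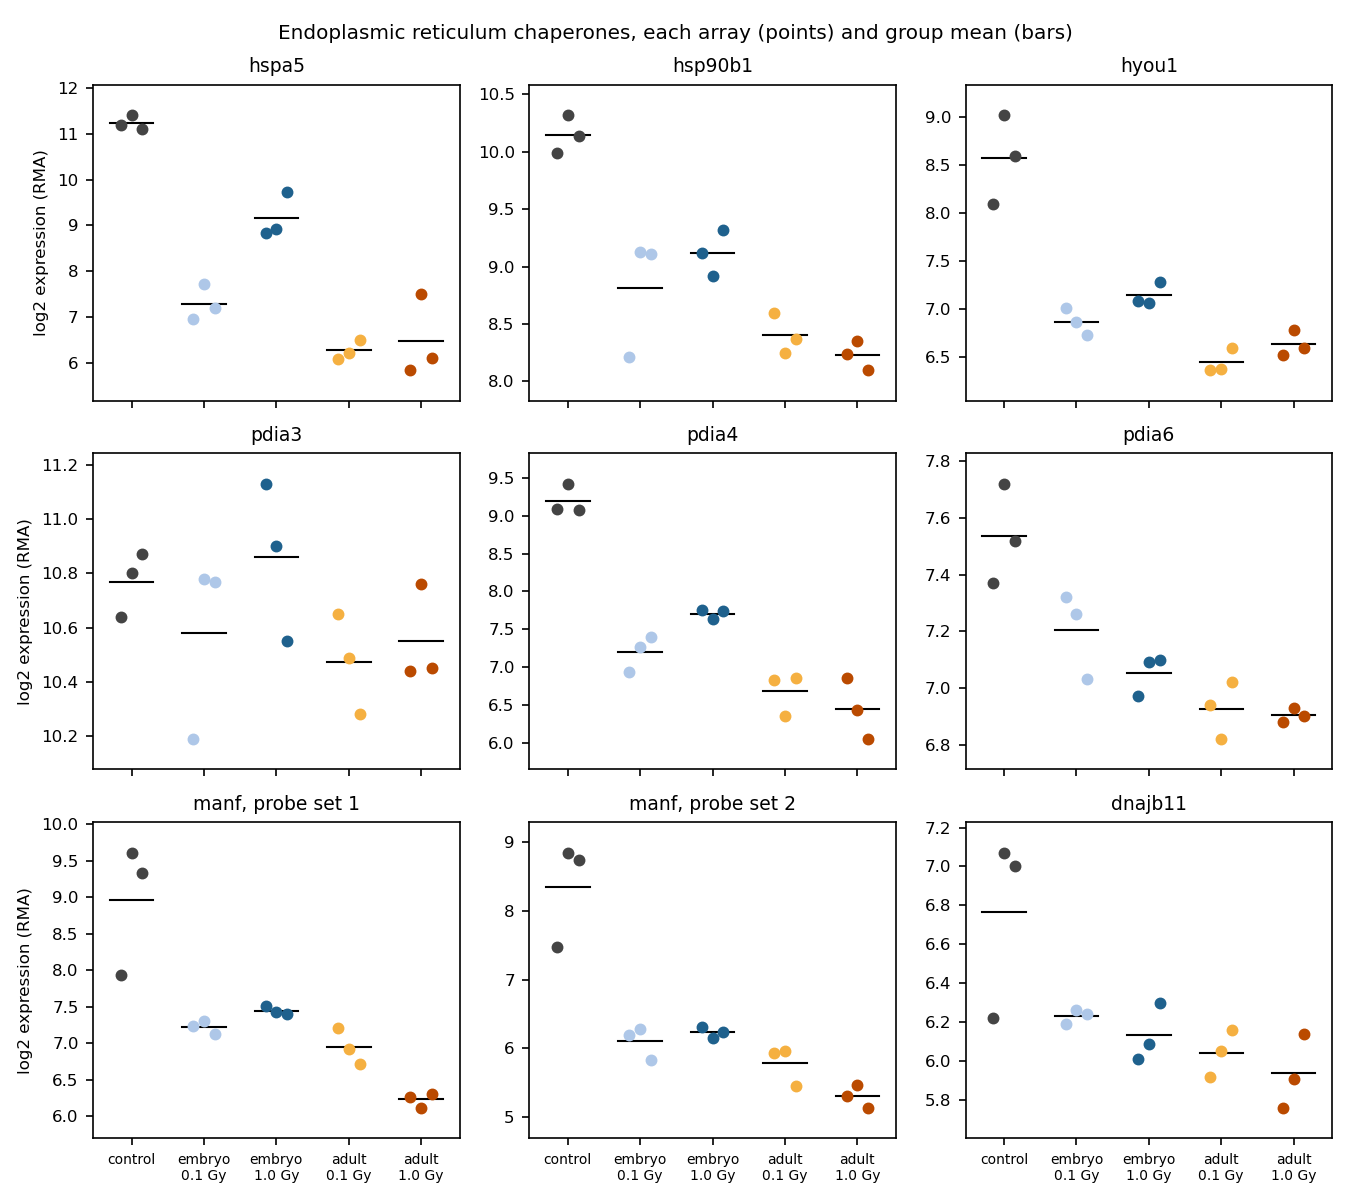
Log2 expression of the 9 probe sets of 8 endoplasmic reticulum chaperone genes on the 15 arrays, one panel per probe set with its own axis. Points are arrays (pools of 2 males), bars are group means over 3 arrays, and the horizontal axis gives the control and the dose and age at irradiation. hspa5 falls from 11.24 in the control to 7.29 and 9.17 in the embryo 0.1 and 1.0 Gy groups, while pdia3 overlaps the control in all groups.

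The comparison of 0.1 with 1.0 Gy within each response asked whether the members depended on dose. In the embryo groups 0.1 minus 1.0 Gy was −1.88 ± 0.35 for hspa5 (log2 difference ± standard error from limma, 3 arrays a group, as in all differences below), which is 3.69-fold more hspa5 signal after the higher dose. The other members had differences of smaller size, from −0.51 ± 0.20 for pdia4 to 0.15 ± 0.11 for pdia6, and 7 of the 9 probe sets were negative. Among these, hsp90b1 and manf probe set 2 did not keep their direction in every fit without 1 array, reaching 0.003 and 0.006. hspa5 alone was called, 1 of 9, where 0.834% of all tested probe sets were called lower in this comparison (1.24% in either direction). Probe sets without overlap between the doses were hspa5, pdia4, hyou1 and manf probe set 1, 4 of 9 and all lower after 0.1 Gy, beside 9.5% of all tested probe sets lower without overlap. The median difference of the 9 probe sets was −0.27 and that of all tested probe sets 0.00. Since these same values were known when the members were chosen, nothing is read from the counts.

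The hspa5 dose difference in the embryo groups kept its direction in each fit that left out 1 array, between −2.09 and −1.60, but was no longer called without embryo 0.1 Gy replicate 1 (−1.71), without embryo 0.1 Gy replicate 3 (−1.84) or without embryo 1.0 Gy replicate 3 (−1.60). It was also not called when the 4 arrays with conflicting source names were left out, although none of them enters the difference itself and the value stayed at −1.88 (± 0.41).

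Between the adult groups no member was called. For hspa5 the difference was −0.21 ± 0.35, for hsp90b1 0.18 ± 0.21, for hyou1 −0.19 ± 0.18, for pdia4 0.23 ± 0.20 and for pdia3 −0.07 ± 0.18. The widest was 0.72 ± 0.30 for manf probe set 1, with 0.48 ± 0.28 for probe set 2. Thus 0 of 9 were called, with 1 at an unadjusted p under 0.05, and across all tested probe sets 0.0811% were called and 12.5% had such a p. manf probe set 1 was the only member without overlap, 1 of 9 and higher after 0.1 Gy, beside 9.52% of all tested probe sets higher without overlap. It was called only in the fit without control replicate 1, at the same difference of 0.72 and a smaller standard error of 0.13. The hspa5 value turned with its arrays, from −0.52 to 0.30 as single arrays were left out, and to 0.02 without the 4 arrays with conflicting source names.

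Whether the dose difference itself differed between the responses is given by the embryo difference minus the adult difference. It was −1.68 ± 0.50 for hspa5, −0.94 ± 0.43 for manf probe set 1, −0.74 ± 0.28 for pdia4, −0.61 ± 0.40 for manf probe set 2 and −0.48 ± 0.29 for hsp90b1, and lay between −0.21 and 0.13 for the others. Of the 9 probe sets 0 were called, with 3 at an unadjusted p under 0.05, beside 0.707% called and 12.5% with such a p among all tested probe sets. A dependence of the dose difference on the response was therefore not established for any member. hspa5 was called without adult 1.0 Gy replicate 2 (−2.18 ± 0.35), and manf probe set 1 without control replicate 1 or without both controls with conflicting source names (−0.94 ± 0.18 in both).

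**Figure D2:**
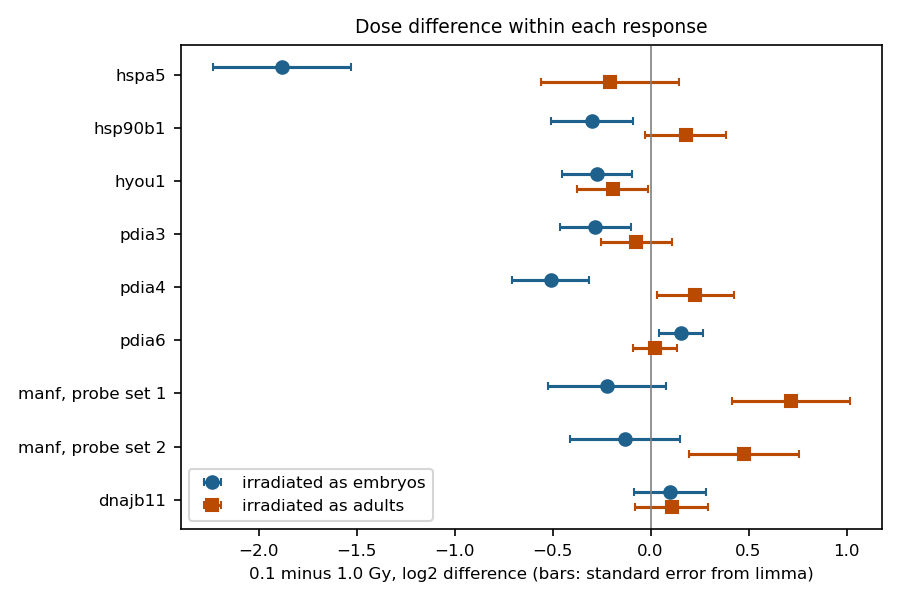
Log2 difference of 0.1 minus 1.0 Gy for each of the 9 probe sets in fish irradiated as embryos (circles) and as adults (squares), 3 arrays a group. Bars are the standard error from limma, and values left of 0 are lower after 0.1 Gy. hspa5 stands apart at −1.88 in the embryo groups and −0.21 in the adult groups, while manf probe set 1 is at −0.22 and 0.72.

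Against the control, both responses were lower for nearly all members. For the long-term groups (the mean of both doses) the difference was −3.01 ± 0.31 for hspa5, −2.18 ± 0.24 and −1.63 ± 0.26 for manf probe sets 2 and 1, −1.74 ± 0.17 for pdia4, −1.56 ± 0.16 for hyou1 and −1.18 ± 0.18 for hsp90b1. dnajb11 was at −0.58 ± 0.16 and pdia6 at −0.41 ± 0.10. For pdia3 it was −0.05 ± 0.16. The called members were 8 of 9, all lower, where 13.7% of all tested probe sets were called lower. The long-term arrays lay wholly below the controls for 7 of 9, beside 10.7% of all tested probe sets.

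For the acute groups the difference from the control was −4.87 ± 0.31 for hspa5, −2.80 ± 0.24 and −2.37 ± 0.26 for manf probe sets 2 and 1, −2.64 ± 0.17 for pdia4, −2.02 ± 0.16 for hyou1 and −1.83 ± 0.18 for hsp90b1. dnajb11 was at −0.77 ± 0.16, pdia6 at −0.62 ± 0.10 and pdia3 at −0.26 ± 0.16. Again 8 of 9 were called lower, all but pdia3, beside 25.0% of all tested probe sets, and 8 of 9 lay wholly below the controls, beside 23.4%. In liver pieces with several cell types, fewer cells of a type and less RNA per cell cannot be told apart.

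The long-term and acute comparisons share the control arrays. Between the responses themselves, long-term minus acute was 1.86 ± 0.25 for hspa5, 0.89 ± 0.14 for pdia4, 0.75 ± 0.21 and 0.62 ± 0.20 for manf probe sets 1 and 2, 0.65 ± 0.15 for hsp90b1, 0.46 ± 0.13 for hyou1 and 0.21 ± 0.08 for pdia6. All 9 differences were positive, and 7 of 9 probe sets were called, the acute level being the lower, beside 20.6% of all tested probe sets called higher. Arrays of the responses were wholly separate for pdia4 only, beside 11.0% of all tested probe sets. The pdia6 call was lost in 11 of the 15 fits without 1 array, and that of manf probe set 2 without adult 0.1 Gy replicate 3 (0.54) or embryo 0.1 Gy replicate 2 (0.58).

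The size of these differences rested in part on the control. Control replicate 1 had lower manf, hyou1 and dnajb11 than the other controls, and control replicates 2 and 3 are those with conflicting source names. Without both of these controls, hspa5 (−2.97), pdia4 (−1.64), manf probe set 2 (−1.30) and hyou1 (−1.09) were still called lower in the long-term groups. manf probe set 1 (−0.60), hsp90b1 (−1.02) and dnajb11 (−0.04) were then not called, and pdia6 did not vary enough to be tested. The dnajb11 calls were also lost without either of these controls alone (−0.43 and −0.47 long-term, −0.62 and −0.66 acute), and the long-term pdia6 call without control replicate 2 (−0.31). Values of dnajb11 spanned 0.22 between the quartiles of the 15 arrays, near the 0.2 needed for testing. This gene varied enough to be tested in 11 of the 15 fits without 1 array. The acute pdia6 call was lost without the 4 arrays (−0.40 ± 0.16). In the acute groups hspa5 was at −4.83 and manf probe set 1 at −1.35 without both controls. hspa5, pdia4, hyou1 and manf probe set 2 were called lower in both responses with and without these arrays. The fit without both controls keeps 1 control array, and the share of all probe sets called in it is not given here. Calls lost in it can therefore not be told apart from a general loss.

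Over the 8 genes, each centred on its mean over the arrays, the mean level was 1.28 ± 0.31 in the control (SD, n = 3), −0.19 ± 0.16 and 0.21 ± 0.09 in the embryo 0.1 and 1.0 Gy groups, and −0.60 ± 0.08 and −0.69 ± 0.15 in the adult 0.1 and 1.0 Gy groups. Genes were centred but not scaled, so hspa5, with the widest range, weighs most in this mean. Between the embryo doses hspa5 differed by −1.88 and the other probe sets by −0.51 to 0.15. The adult groups were neighbours that did not differ beyond their spread. Across the 15 arrays hspa5 and pdia4 had a Pearson correlation of 0.94, over arrays that also hold the differences between groups. After each group's mean was subtracted the correlation was 0.06. The remaining deviations were correlated for both manf probe sets (0.91), for hyou1 and pdia6 (0.85) and for hyou1 and dnajb11 (0.80), over the same 15 arrays. For each of these probe sets the controls had the widest spread of the 5 groups, with control replicate 1 the lowest control. The controls therefore weigh most in these correlations, and a deviation shared by the irradiated arrays is not shown. The genes outside the lists whose profile was most like the mean of the members over the 15 arrays were yif1a (r = 0.98), cycsb, rbm4.2, adob and tubb2b (r = 0.97 for each).

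Other genes of endoplasmic reticulum folding and its stress response were taken as lists from general knowledge, with earlier results of these arrays known. Genes were named from the lists by the size of their called differences. Their adjusted p-values therefore describe these arrays and are no independent test. In all, 65 listed genes had a probe set and 53 of them, with 64 probe sets, varied enough to be tested. In the acute groups 7 of these genes rose and 24 fell in limma, and in the long-term groups 1 rose and 18 fell. Over all tested probe sets 14.6% were called higher and 25.0% lower in the acute comparison, and 7.56% higher and 13.7% lower in the long-term comparison. Counted by probe set, 10 of the 64 were called higher and 28 lower in the acute comparison, and 1 higher and 20 lower in the long-term one. The share of these probe sets called higher in the acute groups was thus near that of all. Gene counts here and below are not like for like with shares of probe sets where a gene has several. Between the doses ppp1r15a was the only gene called, in the embryo groups, where 1.24% of all tested probe sets were called. In the adult groups 0 of 64 probe sets were called, with 7 at an unadjusted p under 0.05 in limma, beside 0.0811% and 12.5% of all tested probe sets. Without both controls with conflicting source names part of the acute calls and all of the long-term calls were lost. chac1, not among these long-term calls, had a long-term difference of 1.96 in that fit. That fit keeps 1 control array, and the share of all probe sets called in it is not given here. A general loss of calls can therefore not be told apart from a loss particular to these genes.

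Of the stress signalling genes, 4 of 12 tested rose and 2 fell in the acute groups. By probe set 7 of 17 were called higher and 2 lower, beside 14.6% of all tested probe sets called higher and 25.0% lower. ppp1r15a (GADD34), the phosphatase subunit that reverses eIF2α phosphorylation, was the gene called between the doses. It was at 4.93, 5.26 and 6.72 in the control, at 7.88, 7.13 and 7.83 in the embryo 0.1 Gy group and at 4.86, 4.77 and 4.88 in the embryo 1.0 Gy group. In the adult groups it was at 8.16, 8.77 and 7.73 after 0.1 Gy and at 7.47, 7.97 and 6.90 after 1.0 Gy. By this probe set the embryo 1.0 Gy arrays (at most 4.88) lay just below the lowest control (4.93), and the embryo 0.1 Gy arrays above every control. By its other 3 probe sets the embryo 1.0 Gy arrays overlapped the control. These embryo 1.0 Gy values of 4.77 to 4.88 were a low signal, below the array medians of 5.02 to 5.14, so little can be read from their order against the control. The embryo difference of 0.1 minus 1.0 Gy was 2.78 ± 0.40 (adjusted p = 0.0045, limma), and its other 3 probe sets gave 1.96, 1.52 and 1.93, all called. This probe set was called in each of the 15 fits without 1 array, but the others were not: without any single embryo array only 1 or 2 of the 4 were called. In the adult groups the difference was 0.78 ± 0.40 (adjusted p = 0.46), and the embryo difference minus the adult difference of 2.00 ± 0.57 did not pass (adjusted p = 0.14). It was called without both controls with conflicting source names (2.00 ± 0.42) and without all 4 such arrays (2.49 ± 0.46). In the embryo groups ppp1r15a was thus higher, and hspa5 lower, after 0.1 than after 1.0 Gy.

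**Figure D3:**
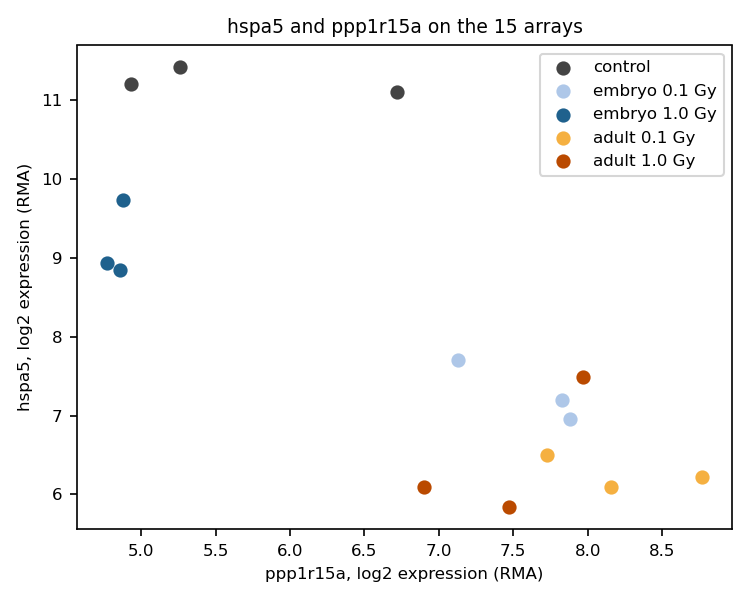
Log2 expression of hspa5 (vertical) against ppp1r15a (horizontal) on each of the 15 arrays, coloured by group. The embryo 1.0 Gy arrays lie at 4.77 to 4.88 for ppp1r15a and 8.84 to 9.73 for hspa5, and the embryo 0.1 Gy arrays at 7.13 to 7.88 and 6.95 to 7.71.

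In the acute groups ppp1r15a rose by 2.19 ± 0.35 (adjusted p = 0.00021, limma), with all 4 of its probe sets called. chac1, a glutathione-degrading enzyme induced by the eIF2α branch, rose by 2.02 ± 0.39 (adjusted p = 0.00085), from 8.83, 10.36 and 10.92 in the control to between 10.93 and 12.86 on the acute arrays. The other chac1 probe set lay between 3.01 and 3.45 on all arrays and did not vary enough to be tested. creb3l3l, a membrane-bound transcription factor of the liver, rose by 1.19 ± 0.17 (adjusted p = 0.00011), and eif2ak3 (PERK), the kinase that phosphorylates eIF2α, fell by 1.17 ± 0.20 (adjusted p = 0.00036). The eif2ak3 call was lost without both controls with conflicting source names (−0.74 ± 0.29). In the long-term groups mbtps1, the protease that activates membrane-bound transcription factors, rose by 0.40 ± 0.11 (adjusted p = 0.022), and atf4a, the factor translated when eIF2α is phosphorylated, fell by 0.28 ± 0.09 (adjusted p = 0.043). The atf4a call was lost in 12 of 15 fits without 1 array. Its mean was 9.38 in the control, 8.87 in the embryo 0.1 Gy group and 9.32 in the embryo 1.0 Gy group, so the fall lay mostly at 0.1 Gy. The atf4a difference between the embryo doses was not called, but it was with array weights (−0.55) or repeated quantile normalization (−0.53). xbp1, a transcription factor of the unfolded protein response named here after its values were seen, had a long-term difference of −0.76 ± 0.21 and an acute one of −0.45 ± 0.21 and was not called, since its F-test over the groups did not pass.

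The lectin chaperones, which retain glycoproteins until they are folded, fell in 6 of 7 genes in each response and rose in 0, beside 25.0% (acute) and 13.7% (long-term) of all tested probe sets called lower. calnexin (canx) was at 9.70, 9.45 and 10.61 in the control and at 8.43, 8.21 and 8.19 after 0.1 Gy and 8.01, 8.53 and 7.97 after 1.0 Gy in the adult groups, all below the controls. It fell by 1.70 ± 0.21 in the acute groups (adjusted p = 3.2e-05, limma) and by 0.85 ± 0.21 in the long-term groups (adjusted p = 0.012). The calreticulin gene calr3a fell by 1.12 ± 0.13 in the acute groups (adjusted p = 2e-05), and uggt1, which marks unfolded glycoproteins for another round, by 0.89 ± 0.13 (adjusted p = 0.00012). calr3b fell by 1.96 ± 0.25 in the acute and 1.53 ± 0.25 in the long-term groups at a low signal, from 4.44, 5.87 and 5.65 in the control to between 3.08 and 3.64 on the acute arrays. The median difference of the 7 lectin probe sets was −0.89 in the acute groups and −0.64 in the long-term groups, where the median of all tested probe sets was 0.01 and 0.04.

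Of the other oxidoreductases, 4 of 12 tested genes fell in the acute groups and 0 rose, with a median of −0.29. By probe set 6 of 16 were called lower, a share above, but not far from, the 25.0% of all tested probe sets called lower. txndc5 fell by 0.97 ± 0.20 (adjusted p = 0.0015, limma), pdia5 by 0.78 ± 0.11 (adjusted p = 0.00011), tmx1 by 0.58 ± 0.16 (adjusted p = 0.0075) and prdx4, a peroxiredoxin of the compartment, by 0.28 ± 0.10 (adjusted p = 0.024). In the long-term groups txndc5 fell by 0.60 ± 0.20 (adjusted p = 0.046), a call lost in 11 of 15 fits without 1 array, and pdia5 by 0.40 ± 0.11 (adjusted p = 0.022). Without both controls with conflicting source names the acute pdia5 call was the only one of these that was kept, and both long-term calls were lost. Of 8 co-chaperone and translocation genes 4 fell in the acute groups, beside the same 25.0%. serp1, a protein of the translocation channel, fell by 1.69 ± 0.16 in the acute (adjusted p = 4.3e-06) and by 0.86 ± 0.16 in the long-term groups (adjusted p = 0.0026). The hspa5 partner dnajc3b fell by 0.89 ± 0.13 in the acute groups (adjusted p = 0.00014) and by 0.63 ± 0.13 in the long-term groups (adjusted p = 0.0051), and dnajc3a fell by 0.83 ± 0.19 in the acute groups (adjusted p = 0.0027). dnajc1 fell by 0.50 ± 0.12 (adjusted p = 0.0038).

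Degradation genes, which return misfolded proteins to the cytosol, went both ways in the acute groups: 8 of 14 tested genes fell and 3 rose. By probe set 10 of 16 were called lower and 3 higher, beside 25.0% of all tested probe sets called lower and 14.6% called higher. erlec1, a lectin of this route, had a difference of −1.60 ± 0.21 (adjusted p = 5.1e-05, limma). The ubiquitin ligase syvn1 fell by 0.88 ± 0.19 (adjusted p = 0.0018) and the channel protein derl2 fell by 0.73 ± 0.14 (adjusted p = 0.001), whereas herpud2 rose by 0.84 ± 0.13 (adjusted p = 0.00015). In the long-term groups syvn1 fell by 0.88 ± 0.19 (adjusted p = 0.005) and vcp, the extracting ATPase, by 0.85 ± 0.11 (adjusted p = 0.00022). Without both controls with conflicting source names, 11 of the 20 acute calls of genes chosen for naming were kept, among them ppp1r15a, chac1, creb3l3l, canx, calr3a, serp1, erlec1 and herpud2, and 0 of the 10 long-term ones. Without all 4 such arrays the pdia5 call was lost too. Without both controls the acute calls of uggt1 (−0.55), dnajc1 (−0.37), derl2 (−0.36), syvn1 (−0.31) and dnajc3a (−0.12) were lost. They were also lost without all 4 arrays. Single arrays also decided some of these calls. Without control replicate 2 or control replicate 3 the acute calls of dnajc3a (−0.61 and −0.70), syvn1 (−0.67 and −0.81) and prdx4 (−0.30 and −0.24) were lost, that of prdx4 also without adult 0.1 Gy replicate 3 (−0.24). The long-term calls of mbtps1 (0.37 in both), pdia5 (−0.28 and −0.38) and syvn1 (−0.66 and −0.81) were lost without the same controls. The long-term canx call was lost without control replicate 3 (−0.50), and the acute tmx1 call without adult 1.0 Gy replicate 2 (−0.55).

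The chaperones of cytosol and mitochondria, a list outside the endoplasmic reticulum, had 24 probe sets tested. Of these 11 fell and 0 rose in the acute groups (median −0.42), beside 25.0% of all tested probe sets called lower. In the long-term groups 8 fell and 0 rose (median −0.33), beside 13.7%. Between doses 0 were called in either response, beside 1.24% (embryo) and 0.0811% (adult) of all tested probe sets. An unadjusted p under 0.05 in limma was seen for 5 in the embryo and 4 in the adult groups, beside 13.8% and 12.5%. The medians of the 9 chaperone probe sets were −2.02 in the acute and −1.56 in the long-term groups.

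**Figure D4:**
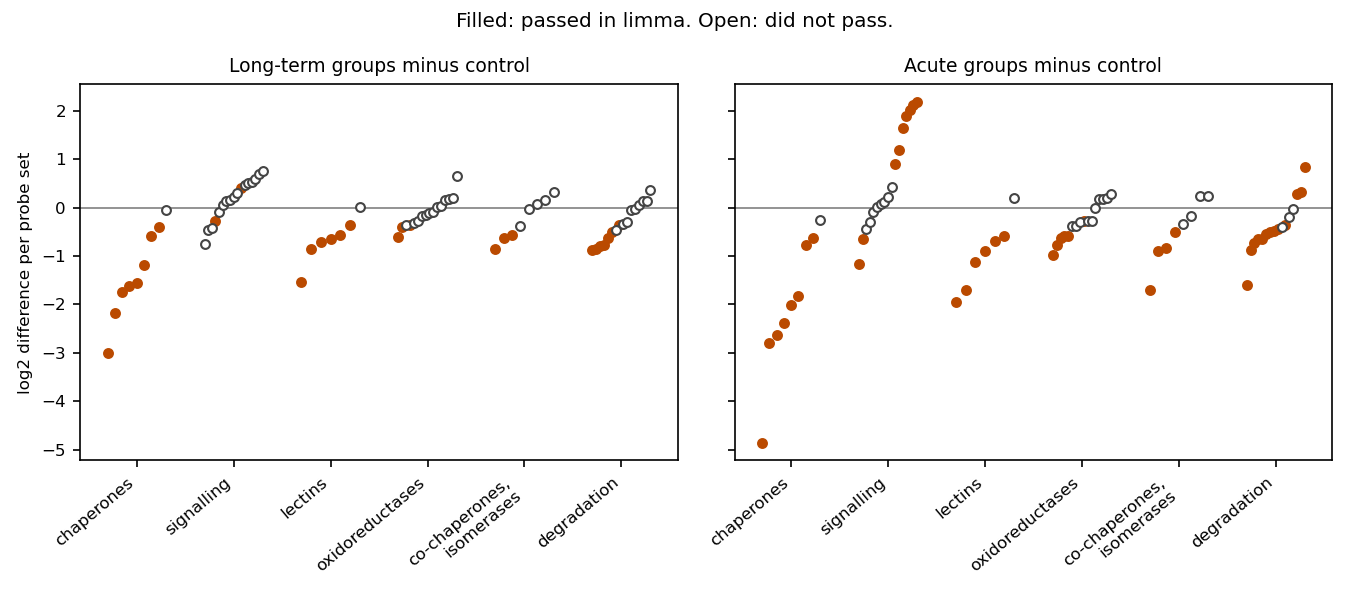
Log2 difference from the control of each tested probe set, for the long-term groups (left) and the acute groups (right), by role: the 9 chaperone probe sets and the 5 lists of endoplasmic reticulum genes, sorted within a role. Filled points were called in limma (adjusted p under 0.05), open points were not. The chaperones reach −3.01 and −4.87 (both hspa5), the lectins −1.53 and −1.96, and stress signalling genes rise to 2.19 in the acute groups.

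RNA of other cell types varied between arrays. Acinar cells of the exocrine pancreas, which lies against the liver in fish, are rich in endoplasmic reticulum, and their 17 marker genes had a summed level (log2) of 14.98 to 16.42 in the control, 14.75 to 16.89 and 15.50 to 16.45 in the embryo 0.1 and 1.0 Gy groups, and 14.03 to 15.47 and 13.81 to 17.05 in the adult 0.1 and 1.0 Gy groups. All 19 of their probe sets were tested and 0 were called in any of the 6 comparisons, although all 19 had a negative acute difference (median −0.58). Over all tested probe sets the share called in these comparisons ran from 0.0811% (adult dose) to 39.6% (acute). The array with the highest pancreatic level, adult 1.0 Gy replicate 3 at 17.05, had hspa5 at 6.10, and the array with the lowest, adult 1.0 Gy replicate 1 at 13.81, had it at 5.84. Control replicate 3 had hspa5 at 11.10 with a pancreatic level of 14.98. The summed level of the intestinal markers (9 genes) was 12.87 to 13.07 in the embryo 0.1 Gy group and 13.34 to 13.42 in the embryo 1.0 Gy group. It was 13.04 to 13.39 in the control, and 0 of the 6 tested probe sets were called between the embryo doses, beside 1.24% of all tested probe sets. This sum mostly followed apoa4b.1 (mean 13.03, 12.76 to 13.27 over the arrays), with fabp2 next at a mean of 8.25. Of the 6 tested probe sets 5 were lower after 0.1 than after 1.0 Gy in the embryo groups (median −0.25). In limma 2 of them had an unadjusted p under 0.05, beside 13.8% of all tested probe sets. Muscle markers (13 genes) were at 9.65 to 9.82 in the control and at 9.63 to 10.47 and 10.17 to 11.34 in the embryo 0.1 and 1.0 Gy groups. They were at 9.83 to 10.12 and 10.05 to 12.69 in the adult 0.1 and 1.0 Gy groups, the highest in replicate 3. Of their 14 tested probe sets 0 were called in any of the 6 comparisons, beside the same 0.0811% to 39.6% of all tested probe sets. In each response 13 of the 14 were lower after 0.1 than after 1.0 Gy (median −0.63 embryo, −1.18 adult). Adult 1.0 Gy minus control was positive for all 14 (median 1.53). Leukocyte markers (11 genes) were at 10.15 to 10.88 in the control and at 10.84 to 11.80 on irradiated arrays. Of their 12 tested probe sets 3 were called higher in the acute and 1 in the long-term groups. Erythrocyte markers (8 genes) were at 11.94 to 12.81 in the control and at 12.20 to 13.37 on irradiated arrays. Of their 7 tested probe sets 1 was called higher in the acute and 0 in the long-term groups. Of all tested probe sets 14.6% were called higher in the acute and 7.56% in the long-term comparison. As a sign of RNA quality, the 3′ minus 5′ signal of GAPDH (log2) lay between −0.20 and −0.02 in the embryo 0.1 Gy group, −0.47 and 0.18 in the embryo 1.0 Gy group and 0.00 and 0.42 elsewhere. For the muscle transcript acta1 it lay between −0.70 and −0.02 in the control, 0.00 and 1.16 in the embryo 0.1 Gy group 0.68 and 2.15 in the embryo 1.0 Gy group, −0.34 and 0.23 in the adult 0.1 Gy group and −0.16 and 3.40 in the adult 1.0 Gy group, the highest in replicate 3. The part of these measures in the chaperone differences was not tested.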

How the data were processed

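Liver RNA of 15 pools of 2 male zebrafish was hybridized to 15 Affymetrix GeneChip Zebrafish Genome Arrays. The authors deposited log2 expression values, background-corrected, quantile-normalized and summarized per probe set by RMA after a quality check; versions are not given in the sources used here. Quantile normalization forces a common distribution on all arrays, so a shift of all transcripts together is not visible.

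From 15617 probe sets 115 manufacturer controls were left out. Probe sets were named from the platform annotation: 10795 had 1 symbol, 135 several and 4572 none. Those whose log2 values spanned 0.2 or more between the quartiles of the 15 arrays were fitted with 5 group means in limma 3.58.1 (R 4.3.3), and p-values were adjusted by Benjamini-Hochberg over all 8634. The fit was tested on simulated data. Groups followed titles, dose and timing. Arrays carry no read depth: their number limits the precision. The labels give no scan or hybridization batch.

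The members and lists were chosen with earlier results of these data known. hspa5 and pdia4 are also among genes the study picked on these arrays. All members were described, and from each list of endoplasmic reticulum genes up to 4 called genes by size in the acute, 2 in the long-term and 3 in each dose comparison. Replicate numbers were not used as pairs.

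Alternatives were other filters, array centring, repeated quantile normalization, array weights, a variance trend, no F-test, a replicate block, and arrays left out.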

Additional observations from a re-analysis of the deposited data

Results flagged for a closer look

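manf probe set 1 had opposite dose differences without overlap of arrays, −0.22 for 0.1 minus 1.0 Gy in the embryo groups and 0.72 in the adult groups. calr3b was at −0.39 and 0.27, but at a low signal of 3.08 to 4.13 on the irradiated arrays, about that of the chac1 probe set that did not vary (3.01 to 3.45), so that little can be read from its order. The opposition was noticed from the arrays lying apart in both responses; for manf the difference of the differences (−0.94 ± 0.43) did not pass over all probe sets.

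Long-term minus acute was called in limma for 7 of the 9 chaperone probe sets and for 24 of the 64 other endoplasmic reticulum probe sets (14 higher and 10 lower). Of all tested probe sets 33.3% were called in this comparison, so the share of the other endoplasmic reticulum probe sets was near that of all. Among the chaperones, long-term minus acute was 1.86 for hspa5, 0.89 for pdia4, 0.75 and 0.62 for manf probe sets 1 and 2, 0.65 for hsp90b1, 0.46 for hyou1 and 0.21 for pdia6, so the acute level was the lower. Of the stress signalling genes it was −1.61 for ppp1r15a, −1.26 for chac1, −0.96 for creb3l3l and −0.50 for mbtps1, higher in the acute groups, and 0.76 for eif2ak3 and 0.36 for atf4a, lower there. Of the folding genes it was 0.85 for canx, 0.48 for calr3a, 0.84 for serp1, 0.47 for dnajc1, 0.38 for pdia5 and 0.47 for tmx1, all lower in the acute groups. prdx4, at 0.46, had differences from the control of opposite sign, 0.17 ± 0.10 for the long-term groups and −0.28 ± 0.10 for the acute ones. Of the degradation genes it was 0.81 for erlec1 and 0.40 for derl2, lower in the acute groups, and −0.79 for herpud2 and −0.35 for vcp. Of these differences, those of eif2ak3 (0.79 ± 0.20), dnajc1 (0.49 ± 0.13), tmx1 (0.56 ± 0.14) and pdia6 (0.17 ± 0.10) were no longer called without the 4 arrays with conflicting source names, and those of tmx1 (0.47 ± 0.13) and derl2 (0.40 ± 0.10) without the controls among them.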

How the results depend on the processing

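Of the chaperone probe sets, the embryo dose count of 1 became 0 without the 4 arrays with conflicting source names. The long-term count of 8 became 4 without these arrays and 4 without the controls among them, and 1 was called for the difference between the dose differences (0 before) without those controls. Leaving out 1 array at a time gave 0 to 1 (embryo dose), 0 to 1 (adult dose), 6 to 8 (long-term), 7 to 8 (acute), 5 to 7 (long-term minus acute) and 0 to 1 (difference of dose differences). Of the other endoplasmic reticulum probe sets, the long-term count of 21 became 7 with an interquartile range of at least 0.5, 36 with array weights, 0 without the 4 arrays and 1 without the controls among them, and the acute count of 38 became 19, 15 and 16 under the stricter filter, without the 4 arrays and without these controls. Leaving out 1 array gave 1 to 4 (embryo dose), 0 to 0 (adult dose), 8 to 24 (long-term) and 28 to 39 (acute). The stricter filter tests fewer probe sets, and the other causes were not tested. No difference turned its direction while called. Same-numbered arrays of different groups did not deviate together (correlations −0.29 to 0.18, median −0.06, and 1 of 15 arrays was closest to its own number), so the numbers do not pair the samples. With the replicate block the embryo dose count of these probe sets was 2 instead of 4, and the chaperone counts against the control stayed at 8 and 8. Without the 4 arrays the adult 0.1 Gy group and the control hold 1 array each, whose spread is taken from the other groups. Without the controls among them the control holds 1 array. The shares of all probe sets called in these 2 fits are not given here, so a general loss of calls cannot be told apart.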
